A study of Homo sapiens with 6 samples.

Results

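The response of KP3 cells to an siRNA against the kinase NEK7 was described by setting 1 RNA sequencing library from NEK7 siRNA cells against 1 library from control siRNA cells. The genes compared were those with an FPKM (fragments scaled to the length of the transcript and the size of the library) of at least 1 in either library, and 12372 of 33097 gene records met that rule. An FPKM of at least 1 was reached in both libraries by 11133 of them and in only 1 of both by 1239. KP3 is an established human pancreatic cancer cell line. Its control library is titled as control siRNA and tagged WT for genotype and treatment, and it is taken here as control siRNA. Another KP3 library came from cells given an siRNA against the related kinase NEK6. CFPAC, another established human pancreatic cancer line, was given siRNAs with the same 3 labels, which makes 6 libraries in all, 1 for each line and siRNA. The labels give no siRNA sequence, dose or time after transfection, so they do not say whether both lines got the same siRNA molecules.

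NEK7 is a small serine/threonine kinase that consists of little more than its kinase domain. In mitosis it is switched on by NEK9 together with its close relative NEK6, and it is known for building the spindle and separating centrosomes through motors such as KIF11. Outside mitosis NEK7 binds the sensor NLRP3 and helps it form the inflammasome, a complex in which the adaptor PYCARD (ASC) recruits caspase-1. Caspase-1 then matures interleukin-1 beta and interleukin-18 and cuts gasdermin D, whose pores end the cell by pyroptosis. The study's title ties NEK7 to pyroptosis genes and the tumour's surroundings.

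No condition had a replicate library, so no difference within KP3 has a replicate check, an error or a p-value. Differences are given as the NEK7 siRNA minus the control value of log2(FPKM + 1), a scale that understates the change of low genes. Intervals on ratios and limits on counts of 0 cover counting error only. The KP3 libraries held 60516117 to 66067379 counts, of which 11.4% to 13.6% came from mitochondrially encoded genes. Pearson's r over the 12372 genes, on the log2(FPKM + 1) scale, came to 0.966 between the control and NEK7 siRNA libraries, 0.968 between control and NEK6 siRNA and 0.963 between both siRNA libraries. These correlations are across genes, which are not independent replicates. Duct epithelium markers summed to 1405, 1548 and 1425 FPKM in the control, NEK6 siRNA and NEK7 siRNA libraries, with 9 of 11 markers among the genes compared. Acinar markers summed to between 0.0615 and 0.224 FPKM and endothelial markers to at most 0.0246. Of the fibroblast markers 3 of 10, of the endocrine markers 1 of 10 (ISL1) and of the leukocyte markers 1 of 11 (CD68, which many cell types carry in lysosomes) were among the genes compared.

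The siRNA target was examined first. NEK7 (ENSG00000151414, chromosome 1, 198156994 to 198322420, plus strand) stood at 14.7 FPKM after control, 12.4 after NEK6 and 5.79 after NEK7 siRNA, from 6126, 4844 and 2481 counts. The NEK7 siRNA library was thus the lowest of the KP3 libraries, with 39.5% of the control level left (95% interval 37.7 to 41.4). In CFPAC the counts were 5633, 7405 and 985, and the difference of -2.22 was larger in size than the -1.21 of KP3. Set against the NEK6 siRNA library, 46.8% of NEK7 was left in KP3. In RNA from whole cultures, fewer cells with NEK7 RNA and less of it in each cell cannot be told apart.

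NEK7 shares its activator and part of its work with other kinases, and none of the other NEK kinases compared stood 2-fold from control with NEK7 siRNA on the log2(FPKM + 1) scale. NEK6 had 21.3, 6.98 and 22.4 FPKM in the control, NEK6 siRNA and NEK7 siRNA libraries. NEK9, the upstream activator of both, had 6.54, 6.94 and 7.69 FPKM. NEK2, the kinase that loosens the link between centrosomes, had 12.2, 11.3 and 15.6 FPKM, and NEK4 had 1.09, 1.07 and 0.528. The spindle proteins among NEK7's partners and substrates were close to level across the libraries, with KIF11 at 7.83, 6.99 and 8.37 FPKM and TPX2 at 50.8, 47.2 and 57.2. EML4, a microtubule-binding protein that NEK6 and NEK7 phosphorylate, was higher in the NEK7 siRNA library alone, at 45.9 FPKM against 23.6 with control and 23.0 with NEK6 siRNA. RGS2, a brake on G protein signalling that is also reported to bind NEK7, had 35.2 FPKM against 12 and 9.57. Of 16 NEK kinases and partners among the genes compared, 2 were at least 1.5-fold higher (EML4 and RGS2) and 1 was at least 1.5-fold lower (NEK7). Over all 12372 genes, 5.46% were at least 1.5-fold higher and 5.45% at least 1.5-fold lower, and the median difference was 0.02. The list's median was 0.08.

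The inflammasome was next, since its assembly is the best known role of NEK7 outside mitosis. NLRP3, the sensor that NEK7 binds, had 0 counts in each of the KP3 libraries, which allows up to 3 counts a library, whereas CFPAC had 377, 418 and 262 with control, NEK6 and NEK7 siRNA. CASP1 had 16, 47 and 0 counts in the KP3 control, NEK6 and NEK7 siRNA libraries. IL1B, the precursor of interleukin-1 beta, had 14, 19 and 57 counts, against 4135 in the CFPAC control. Its NEK7 siRNA level was 4.10 times that of the KP3 control (95% interval 2.28 to 7.35), yet only 0.235 FPKM. These genes were therefore at or near 0 in KP3 whichever siRNA was given, and of 44 genes listed for inflammasomes and pyroptosis 24 of those in the table stayed under an FPKM of 1 in both libraries compared. AIM2, the sensor of DNA in the cytosol, also had 0 counts, and NLRC4, the partner of NAIP, had 53 with control and 81 with NEK7 siRNA.

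Some downstream members were present. PYCARD, the adaptor, had 9.07 FPKM with control, 8.42 with NEK6 and 13.9 with NEK7 siRNA, a difference of 0.56 that lies just under 1.5-fold on this scale. CASP4, which senses bacterial lipopolysaccharide and can cut gasdermin D without NLRP3, had 9.44, 10 and 10.9 FPKM. GSDMD, gasdermin D itself, had 6.25, 5.97 and 7.07. All of these were highest in the NEK7 siRNA library, CASP4 and GSDMD by smaller amounts than PYCARD. GSDME, another gasdermin, had only 110, 112 and 37 counts. IL18 had 8.11, 10.2 and 8.91 FPKM, with the NEK6 siRNA library the highest. CASP8, the apical caspase of death receptors, had 9.25, 7.6 and 13.5 FPKM.

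Of 18 inflammasome genes compared, 2 were at least 1.5-fold higher and none lower, with a median of 0.16. Both encode proteins outside the core complex. TXNIP, a thioredoxin-binding protein that also restrains glucose uptake and is reported to bind NLRP3, had 40.0, 41.0 and 108 FPKM. HMGB1, a chromatin protein that alerts neighbouring cells when released, had 23.0, 25.7 and 38. In CFPAC, TXNIP had 87.1 FPKM with control and 101 with NEK7 siRNA. Of the interleukin-1 family and its signalling genes, 9 were compared and 0 passed 1.5-fold in either direction, with a median of -0.10. The kinases that carry the receptor's signal moved unequally, with IRAK1 at 83.4, 123 and 102 FPKM and IRAK2 at 24.1, 20.9 and 19.1.

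Across the whole transcriptome, 188 genes (1.52% of 12372) were at least 2-fold higher with NEK7 siRNA and 195 (1.58%) at least 2-fold lower, and 11023 lay within 1.5-fold. The counts in the higher and lower directions were close to each other. The genes nearest the 2-fold limit differed by 1.00002 inside and 0.9973 outside it for higher genes, and by 1.0003 and 0.9996 in size for lower genes. Genes past 2-fold were less often protein-coding (55.9% against 83.6% of all genes compared) and more often pseudogenes (14.6% against 6.38%). Another gene record overlapped 47.5% of them on the same strand, against 29.2% of all, so reads could be shared between records. Of the 1239 genes with an FPKM of 1 in only 1 library, 182 were past 2-fold.

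The NEK6 siRNA library of the same line showed where the control library stood apart by itself. Of the higher genes, 73 (0.590% of 12372) were at least 2-fold above both the control and the NEK6 siRNA library. Another 62 were at least 2-fold above control with both siRNAs and less than 2-fold above the NEK6 siRNA library. In some of these 62 the NEK6 siRNA library was the higher one by more than 2-fold, as for RN7SK. It had 0.902, 16.1 and 4.47 FPKM with control, NEK6 and NEK7 siRNA. The other 53 had the NEK6 siRNA library in between. Of the lower genes, 62 (0.501%) were at least 2-fold below both, 60 were low with both siRNAs, and 73 had the NEK6 siRNA library in between. About as many differences were thus shared by both siRNAs as stood out in the NEK7 siRNA library. Both siRNA libraries were set against the same control library, so such shared differences are not independent of each other.

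**Figure D1:**
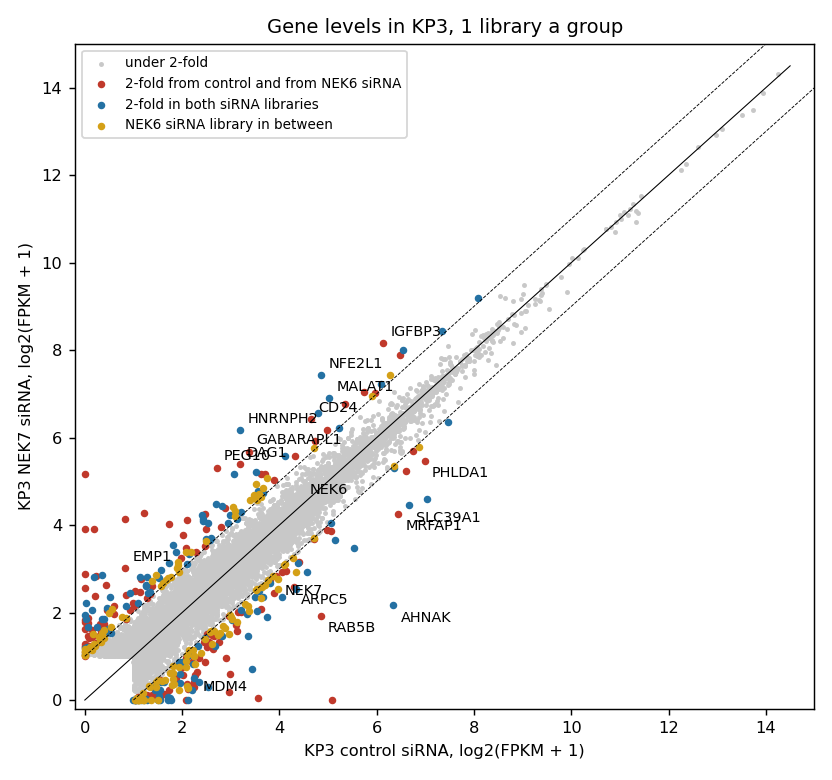
Each point is 1 of the 12372 genes, with log2(FPKM + 1) in the KP3 control library on the x axis and in the NEK7 siRNA library on the y axis, and the dashed lines mark 2-fold. Red points are the 73 higher and 62 lower genes at least 2-fold from both other KP3 libraries, blue points the 62 higher and 60 lower genes at which both siRNA libraries lie 2-fold from control, gold points those with the NEK6 siRNA library in between, and most genes are grey and lie close to the diagonal.

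Among the 73 genes that stood highest in the NEK7 siRNA library, PEG10, MPZL1, GABARAPL1, DAG1 and EMP1 had the largest differences among genes with at least 100 counts and no clone name. PEG10 (chromosome 7, 94656325 to 94669695), an imprinted gene derived from a retrotransposon, had 5.56 FPKM with control, 9.84 with NEK6 and 38.9 with NEK7 siRNA. The NEK7 siRNA level was 6.99 times that of control (95% interval 6.72 to 7.27). PEG10 differed by 2.60 in KP3 and by 0.99 in CFPAC, where it went from 1.01 to 2.99 FPKM. MPZL1, a surface glycoprotein that recruits the phosphatase SHP-2, had 2.31, 3.33 and 15.3 FPKM. DAG1, dystroglycan, the receptor that links laminin to the cytoskeleton, had 8.09, 4.21 and 41.2. In both genes the control and NEK6 siRNA libraries lay far below the NEK7 siRNA library. In CFPAC, NEK7 siRNA and control differed by 0.28 for MPZL1 and by 0.33 for DAG1.

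EMP1, an epithelial membrane protein, was almost silent in KP3 at 0.781 FPKM with control and 0.635 with NEK6 siRNA, and stood at 7.11 with NEK7 siRNA, from 472, 360 and 4378 counts. CFPAC had far more of it, 53.4 FPKM with control and 41.6 with NEK7 siRNA. CD24, a lipid-anchored surface glycoprotein used as a marker of pancreatic cancer stem-like cells, had 24.2, 13.2 and 84.5 FPKM in KP3, and its processed copies elsewhere in the genome make its counts uncertain. IGFBP3, a secreted protein that binds insulin-like growth factors, had 69.2, 50.8 and 286 FPKM, from 24250, 16667 and 102820 counts. The KP3 NEK7 siRNA library held 4.14 times the control level (95% interval 4.08 to 4.20), whereas IGFBP3 in CFPAC was 480 FPKM with control and 215 with NEK7 siRNA.

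The same group held genes with other roles. GABARAPL1, a ubiquitin-like protein that coats autophagosomes, had 9.45, 7.96 and 50.3 FPKM, although a near-identical copy in the genome could take part of its reads. RBM47, an RNA-binding splicing factor of epithelial cells, had 3.31, 3.03 and 16.4 FPKM. TOX3, a chromatin protein with an HMG box, had 0.514, 0.385 and 3.47. PAQR4, a membrane protein of the adipoQ receptor family, had 4.57, 4.65 and 18.1 FPKM in KP3. Of the 12 genes named by the largest difference, PAQR4 was the one that was also at least 2-fold higher in CFPAC, by 1.75, but there the NEK6 siRNA library was as high (4.73, 17.3 and 18.2 FPKM). RGCC, named as a regulator of the cell cycle, had 3.07, 3.77 and 12.7 FPKM, and EPDR1, a secreted ependymin-related protein, had 1.23, 1.84 and 5.79.

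Of this group, 38 genes had a symbol that is not a clone name and at least 100 counts, and the 23 of them that the naming rule did not take differed from control by 1.04 to 1.55. They included KLF5, a transcription factor of gut and pancreatic epithelium (1.43), AGR2, a disulfide isomerase of secretory cells (1.41), and the syndecan SDC4 (1.04). KITLG, the ligand of the receptor KIT, differed by 1.04 in KP3 and -0.71 in CFPAC. TMBIM6, an inhibitor of cell death in the endoplasmic reticulum, differed by 1.31 and -0.03. None of these 5 genes reached 2-fold in CFPAC.

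Of the 62 genes lowest in the NEK7 siRNA library, RAB5B, CHMP4A and MRFAP1 had the largest differences under the same limits. RAB5B (ENSG00000111540, chromosome 12, 55973913 to 55994706, plus strand), a small GTPase of early endosomes, had 27.7 FPKM with control, 24.3 with NEK6 and 2.80 with NEK7 siRNA. Its counts were 13877, 11381 and 1440, which left 10.1% of the control level (95% interval 9.56 to 10.7). CFPAC had 14, 14.7 and 15.8 FPKM of RAB5B, with no library low. MRFAP1, a protein that binds chromatin factors of the MRG family, had 85.8, 87.3 and 18.2 FPKM in KP3. ARPC5, a subunit of the Arp2/3 complex that branches actin filaments, had 18.7, 16.1 and 4.96. In CFPAC, ARPC5 was low with NEK6 siRNA instead, at 17.4, 4.47 and 16.1 FPKM.

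MDM4, the partner of MDM2 that holds p53 in check, had 3.82, 4.72 and 0.482 FPKM in KP3 and 2.39, 2.06 and 0.290 in CFPAC. The NEK7 siRNA library was the lowest in each line, with 12.6% of the control level left in KP3 (95% interval 11.4 to 14). PHLDA1, a protein induced by growth factor signalling, had 126, 103 and 43.0 FPKM. SLC39A9, a zinc transporter, had 11.2, 10.4 and 3.26. SPC24, a subunit of the NDC80 complex that ties kinetochores to microtubules, had 5.22, 4.74 and 1.26 FPKM in KP3 and 1.23, 3.07 and 3.78 in CFPAC.

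Several of the 12 lowest genes share reads with another record or a near-identical copy and are uncertain. CHMP4A, a subunit of the membrane-cutting ESCRT-III complex, went from 6.94 to 0.511 FPKM, but summed with the record AL096870 that overlaps it the counts were 1289 with control and 1577 with NEK7 siRNA. BCL2L2, an anti-apoptotic protein of the BCL2 family, had 3.76, 4.81 and 0.227 FPKM. Summed with the readthrough record BCL2L2-PABPN1, its counts were 1373, 1481 and 333, so the NEK7 siRNA library stayed lowest. NOTCH2NLB, F8A2 and DDTL differed by -1.83, -1.66 and -1.54 and each has a close paralogue or copy. The other 23 nameable genes of the group differed from control by -1.45 to -1.01 and included VDR, the vitamin D receptor (-1.23), and the chemokine CXCL2 (-1.01).

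**Figure D2:**
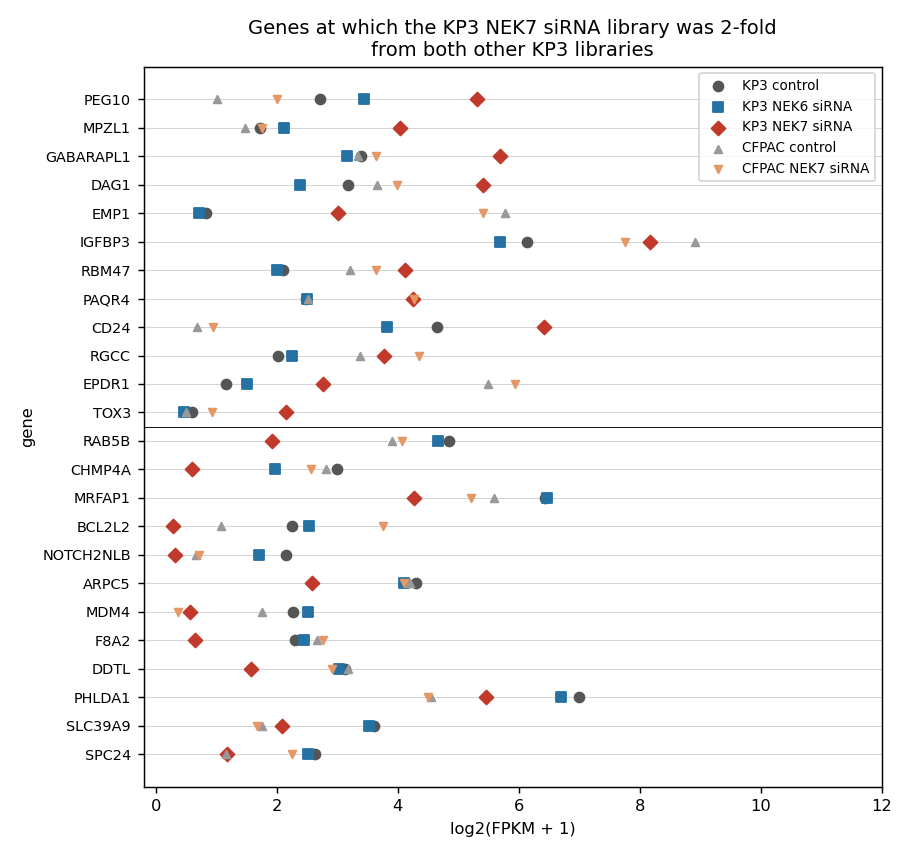
The level as log2(FPKM + 1) is plotted for 12 genes high and 12 genes low in the KP3 NEK7 siRNA library, with 1 point for each of the KP3 libraries and for the control and NEK7 siRNA libraries of CFPAC. The genes were chosen for lying at least 2-fold from both other KP3 libraries, so the NEK7 siRNA point lies apart by that choice. The control and NEK6 siRNA points lie near each other in most genes, as for RAB5B at 27.7 and 24.3 FPKM.

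Where the control library stood apart, both siRNA libraries lay on the same side of it, at similar levels in some genes and not in others. AHNAK, a giant scaffold protein under the plasma membrane (ENSG00000124942, chromosome 11, 62433542 to 62556235, minus strand), had 80.2 FPKM with control, 3.75 with NEK6 and 3.49 with NEK7 siRNA. Its counts were 119600, 5250 and 5336, and its difference of -4.18 was among the largest in size. In CFPAC the counts were 129884, 5523 and 155097, so there AHNAK was low with NEK6 siRNA and not with NEK7 siRNA. SLC39A1, a zinc importer, had 101, 21.6 and 20.8 FPKM in KP3 and between 59.2 and 61.7 in CFPAC. AK4, an adenylate kinase of mitochondria, had 12.5, 3.73 and 2.75, and PRRG1, a membrane protein with a Gla domain, had 9.17, 1.57 and 1.75.

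In other genes the control library alone was low. NFE2L1, the transcription factor that restores proteasome subunits, had 28.0 FPKM with control, 156 with NEK6 and 171 with NEK7 siRNA. HNRNPH2, a splicing factor, had 8.13, 58.1 and 71.2. Its counts summed with the overlapping readthrough record were 3274, 9572 and 13471, so the control library stayed lowest by a smaller ratio. STX16, a syntaxin of the trans-Golgi network, had 7.36, 28.8 and 35.0 FPKM. DYRK2, a kinase that phosphorylates p53, had 76, 1577 and 2354 counts in KP3 and between 3208 and 3958 in CFPAC. MALAT1, a nuclear long noncoding RNA, had 31.4, 236 and 118 FPKM, with the NEK6 siRNA library the highest. CFPAC held between 66 and 67 FPKM of MALAT1 in its libraries.

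Interferon-stimulated genes lay mostly above their control level. Of 45 compared, 40 were above 0 and 5 below, with a median of 0.31, where the median of all genes was 0.02. At least 1.5-fold higher were 9 (5.46% of all genes), and 0 were at least 1.5-fold lower (5.45% of all genes). No member reached 2-fold. With NEK6 siRNA 7 of the 45 were at least 1.5-fold higher (3.86% of all genes), 0 at least 1.5-fold lower (5.07% of all genes), and the median was 0.28. Against the NEK6 siRNA library 1 of the 45 was at least 1.5-fold higher with NEK7 siRNA (6.38% of all genes), 0 were lower (5.11% of all genes), and the median was 0.00. Both siRNA libraries thus lay above control by like amounts in KP3, and they share that control library. In CFPAC the list's median with NEK7 siRNA was 0.11.

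Promoters of 3 members at least 1.5-fold higher, chosen because they hold matches before the start, are shown here to display a short promoter element of interferon-stimulated genes, which the factor ISGF3 reads after interferon signalling. The sequences are the 250 bases before the annotated start, 5′ to 3′ on the strand of the gene, from RefSeq (GRCh38.p14), at chr1:78620198-78620447 (plus strand) for IFI44L, chr1:78649539-78649788 (plus strand) for IFI44 and chr10:89392373-89392622 (plus strand) for IFIT1. Capitals mark matches to the core of the interferon-stimulated response element, which is GAAA, any 2 bases (NN) and GAAA again, on either strand, so that the other strand reads TTTC, NN and TTTC.
IFI44L: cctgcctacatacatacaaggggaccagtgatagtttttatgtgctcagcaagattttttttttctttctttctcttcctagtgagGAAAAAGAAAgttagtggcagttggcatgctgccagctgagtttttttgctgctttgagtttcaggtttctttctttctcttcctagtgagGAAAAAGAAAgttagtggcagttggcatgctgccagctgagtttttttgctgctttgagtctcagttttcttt
IFI44: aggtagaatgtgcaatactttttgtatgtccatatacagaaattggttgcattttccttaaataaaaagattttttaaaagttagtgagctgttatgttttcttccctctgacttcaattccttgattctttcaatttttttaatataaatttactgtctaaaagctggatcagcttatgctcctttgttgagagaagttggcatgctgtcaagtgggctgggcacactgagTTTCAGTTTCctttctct
IFIT1: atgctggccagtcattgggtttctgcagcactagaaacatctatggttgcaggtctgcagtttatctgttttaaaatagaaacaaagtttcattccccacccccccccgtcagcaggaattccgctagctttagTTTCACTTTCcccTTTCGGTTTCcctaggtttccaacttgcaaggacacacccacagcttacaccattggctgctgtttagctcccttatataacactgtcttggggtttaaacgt

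In IFI44L the matches began 164 and 73 bases before the start and lay in an exact repeat of 85 bases at a distance of 91. In IFI44 the match began 18 bases before the start. In IFIT1 the matches began 116 and 103 bases before it and were both on the other strand. OAS1, which differed more than IFIT1, had no match in its window, and the match of MX1 began at base 12 after the start. The element was searched on both strands from 250 bases before to 50 after the start, counting overlapping matches. Among interferon-stimulated genes with a promoter in the RefSeq table it was found in 27 of 36 (75.0%). It was found in 6 of the 7 at least 1.5-fold higher (85.7%) and in 21 of the 29 others (72.4%), so it was frequent whether or not a gene stood past 1.5-fold. Of all 27305 genes in RefSeq 4.38% held it, and of the genes compared 332 of 8591 (3.86%) did. Among genes at least 2-fold higher it was found in 3 of 83 (3.61%), and among those at least 2-fold lower in 1 of 81 (1.23%). A match describes these letters and not a bound site.

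The levels behind these counts were as follows. IFI44L, a feedback regulator of the antiviral response, had 2.17 FPKM with control, 3.16 with NEK6 and 5.05 with NEK7 siRNA, and its neighbour IFI44 had 16.9, 20.7 and 32.7. In both genes the NEK7 siRNA library was the highest and the NEK6 siRNA library lay in between. IFIT2, which binds viral RNA with its relatives, had 25.0, 46.5 and 46.6 FPKM, equal in both siRNA libraries. OAS1, which makes the messenger that activates RNase L, had 9.15, 13.9 and 15.9. IFIT1 had 9.58, 20.2 and 15.8 FPKM, and the antiviral GTPase MX1 had 6.71, 13.7 and 11.8, with the NEK6 siRNA library highest in each. IFIH1 (MDA5), which senses long double-stranded RNA, had 8.11, 10.5 and 13.1 FPKM, and IFI27 had 4.95, 11.7 and 8.16. ISG15, the ubiquitin-like modifier that interferon induces, had 64.5, 89.7 and 66.9, so that its NEK7 siRNA library was near control. CFPAC started higher, with OAS1 at 96.0 and MX1 at 75.6 FPKM in its control library.

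**Figure D3:**
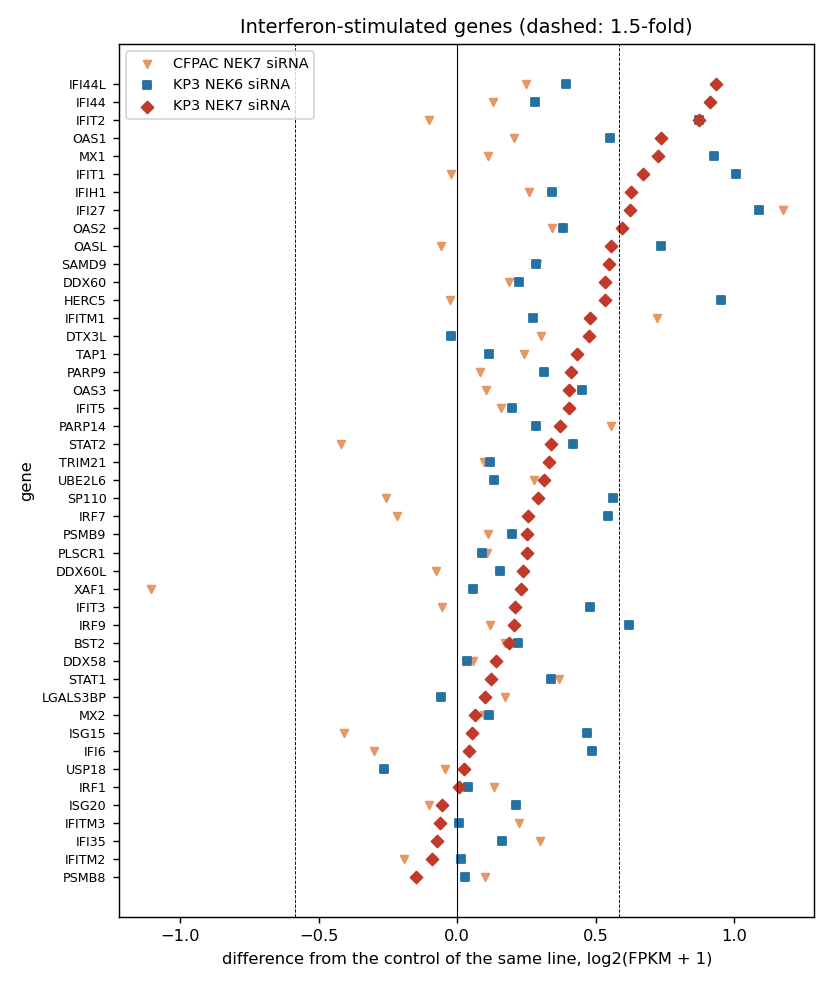
The difference in log2(FPKM + 1) from the KP3 control library is plotted for interferon-stimulated genes, with a red point for the NEK7 siRNA library and a blue one for the NEK6 siRNA library, and an orange point gives NEK7 siRNA against control in CFPAC. In the KP3 NEK7 siRNA library 40 of 45 genes lie above 0, and the genes that lead with NEK7 siRNA, IFI44L and IFI44, have smaller differences with NEK6 siRNA.

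RNAs without a poly(A) tail moved in KP3 with the siRNA libraries in the same direction as these genes. Oligo(dT) beads are meant to leave such RNAs out, so the list is a check of the libraries. It took 0.00218% of the counts in the KP3 control library, 0.0194% with NEK6 siRNA and 0.00401% with NEK7 siRNA. Of 9 compared, 8 were at least 1.5-fold higher with NEK7 siRNA and 1 lower, with a median of 1.01, while with NEK6 siRNA the median was 3.17. The 9 are not separate from each other. RNA5-8SN1, RNA5-8SN2 and RNA5-8SN3 are copies of the same ribosomal RNA, and RN7SL1 and RN7SL2 are close copies. Some rest on few counts, such as RMRP with 4, 467 and 23. RN7SL1, the RNA of the signal recognition particle, had 495, 4837 and 922 counts, and RN7SK, which holds back transcription elongation, had 23, 380 and 116. BCYRN1, a small neuronal RNA, had 30, 22 and 1 counts. In CFPAC the list took 0.00162%, 0.0117% and 0.00273% of the counts, and its median difference with NEK7 siRNA was -0.01. Its part in the interferon-stimulated genes was not tested.

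The remaining lists are given by role, each beside the 5.46% of all genes at least 1.5-fold higher and the 5.45% at least 1.5-fold lower. The median difference of all genes was 0.02. Mitosis and the centrosome, where NEK7 acts as a kinase, held nearly level. Of 59 mitotic genes, 1 was at least 1.5-fold higher and 1 lower, with a median of 0.02. KIF18A, a motor that trims kinetochore microtubules, had 4.06, 3.98 and 6.81 FPKM, and CDC25B, the phosphatase that starts mitotic entry, had 63.9, 67.0 and 41.5. Against the NEK6 siRNA library the median of the mitotic genes was 0.25. Of 43 centrosome and spindle pole genes 0 were at least 1.5-fold higher and 1 was lower, with a median of -0.02. That gene was TUBG1, the gamma-tubulin that nucleates microtubules, at 28.5, 24.7 and 16.8 FPKM. CEP250, the linker protein between centrosomes, had 8.73, 8.41 and 6.04.

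Of 42 genes of DNA replication and S phase, 0 were at least 1.5-fold higher and 3 lower, with a median of 0.05. RRM2, the small subunit of ribonucleotide reductase, had 10.3 FPKM with control, 4.05 with NEK6 and 4.09 with NEK7 siRNA. MCM5, part of the replicative helicase, had 3.47, 1.33 and 1.68, and TK1, thymidine kinase, had 18, 11.1 and 11.1. All 3 genes were as low with NEK6 as with NEK7 siRNA, whereas RRM1, the large subunit of the reductase, had 11.8, 12.3 and 16.7 FPKM. Of 20 canonical histone genes, 4 were at least 1.5-fold higher and 1 lower, with a median of 0.29. H2BC5 had 12.4, 19.9 and 32.6 FPKM and H2BC4 had 3.41, 8.13 and 9.10. Histone genes are close copies of each other and mostly lack a poly(A) tail, so these values are uncertain.

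Although MDM4 was low, genes that p53 activates were not higher as a list. Of 32 on that list 1 was at least 1.5-fold higher and 3 were lower, MDM4 among them, with a median of -0.02. CDKN1A, the cyclin-dependent kinase inhibitor p21, had 11.7, 9.26 and 7.48 FPKM, and MDM2 had 5.08, 4.39 and 3.95. GDF15, a stress cytokine, had 72.6, 50.6 and 38, and GADD45A, a growth arrest protein, had 33.5, 26.0 and 19.0. In these 4 genes the NEK7 siRNA library was the lowest. CCNG1, cyclin G1, was the gene at least 1.5-fold higher, at 28.3, 19.9 and 43.5 FPKM.

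Of 28 genes of NF-kB and inflammatory cytokines, 2 were at least 1.5-fold higher and 4 lower, with a median of -0.09. The neutrophil-attracting chemokines CXCL1 and CXCL2 had 14.9, 18.8 and 8.71 FPKM and 25.1, 25.7 and 11.9. RELA, the p65 subunit of NF-kB, had 16.8, 13.4 and 9.66. CSF1, the growth factor of macrophages, went the other way at 9.62, 9.20 and 16.4. Of 27 immediate early genes, 1 was at least 1.5-fold higher and 3 were lower, with a median of -0.06. The relatives FOSL1 and FOSL2, both partners of JUN in the AP-1 factor, went in opposite directions. FOSL1 had 116, 92.1 and 54.3 FPKM, while FOSL2 had 2.80, 6 and 7.90. Of 23 antigen presentation genes, 2 were at least 1.5-fold higher and 0 lower, with a median of 0.10. They were ULBP3 at 4.55, 3.82 and 10.5 FPKM and ULBP2 at 7.66, 9.18 and 14.7, ligands of the activating receptor NKG2D of natural killer cells.

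Among metabolic and stress lists the medians lay between -0.13 and -0.02. Of 37 genes of hypoxia and glycolysis, 27 were below 0, 1 was at least 1.5-fold higher and 2 were lower, with a median of -0.12. LDHA, lactate dehydrogenase, had 164, 142 and 118 FPKM, and ANGPTL4, an inhibitor of lipoprotein lipase, had 23.0, 21.9 and 13.1. MXI1, an antagonist of MYC, was the higher gene at 2.75, 4.80 and 7.52. Of 33 genes of cholesterol synthesis, 2 were at least 1.5-fold higher and 2 lower, with a median of -0.13, which turned to 0.29 against the NEK6 siRNA library. EBP, a sterol isomerase, had 22.5, 29.1 and 38.1 FPKM and IDI1, an isomerase of the pathway, had 26.0, 15 and 16. Of 40 genes of the unfolded protein response and ATF4, 2 were at least 1.5-fold higher and 2 lower (median -0.02). ATF4, the transcription factor itself, had 11, 20.3 and 25.2 FPKM, while ASNS, asparagine synthetase, an ATF4 target that overlaps another record, had 5.57, 3.85 and 2.92.

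Of 31 NRF2 targets, 2 were at least 1.5-fold higher and 1 lower (median -0.04). GPX2, a glutathione peroxidase of gut epithelium, had 8, 17 and 149 counts, and SLC7A11, the cystine importer that guards against ferroptosis, had 0.688, 2.17 and 2.19 FPKM. Of 75 cytoplasmic ribosomal protein genes, 58 were below 0 but 1 was at least 1.5-fold higher and 1 lower, with a median of -0.08. They were RPL8, at 367, 526 and 605 FPKM, and RPS14, at 111, 99.8 and 65.7. Of 75 nuclear genes of the respiratory chain, 1 was at least 1.5-fold higher and 2 lower (median -0.06), and of 13 mitochondrially encoded genes 0 passed 1.5-fold (median -0.06). The list of the Argonaute and small RNA pathway, through which siRNAs act, also holds sensors of double-stranded RNA such as IFIH1. Of its 17 genes compared, 1 was at least 1.5-fold higher and 0 were lower (median 0.14). The higher gene was IFIH1, which is also counted among the interferon-stimulated genes. Among the Argonaute genes, AGO1 differed by 0.29 and AGO3 by -0.31.

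Epithelial and adhesion genes were described last among the lists. Of 25 junction and mesenchymal genes, 1 was at least 1.5-fold higher and 0 lower, with a median of 0.12 that was -0.05 against the NEK6 siRNA library. The higher gene was CLDN1, a claudin of tight junctions, at 80.4, 86.5 and 131 FPKM, while CLDN3 had 21.2, 22.6 and 15.7. Of 24 integrins, laminins and collagens, 2 were at least 1.5-fold higher and 0 lower (median 0.04). ITGA6, the laminin-binding integrin alpha 6, had 49.1, 36.4 and 87.6 FPKM, high in the NEK7 siRNA library alone. ITGB8, which releases active TGF-beta, had 1.36, 2.82 and 2.90, high with both siRNAs. Of 43 cytoskeleton and focal adhesion genes, 1 was at least 1.5-fold higher and 3 lower (median -0.09). The higher one was YES1, a kinase of the SRC family, at 4.37, 14.4 and 16.1 FPKM, and LIMA1, an actin bundler that overlaps another record, had 64.5, 21.3 and 32.6.

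Of 23 AHNAK, S100 and annexin genes, 1 was at least 1.5-fold higher and 5 lower (median -0.08). S100P, a calcium-binding protein raised in pancreatic cancer, had 2.81, 4.13 and 6.66 FPKM, and S100A16 had 114, 43.5 and 60.5. Of 25 genes listed for YAP and TEAD, which mix these factors with their targets, 1 was at least 1.5-fold higher and 2 lower (median -0.03). Above 0 were 10 and below it 15. ANKRD1, a classic YAP target, had 49.5, 70.7 and 25.9 FPKM and TEAD1, the DNA-binding partner of YAP, had 8.72, 9.72 and 4.66, both lowest with NEK7 siRNA. Other classic targets had like levels with control and NEK7 siRNA, with CCN1 at 11.8, 16.4 and 11.6 FPKM and CCN2 at 3.82, 3.82 and 3.81. Of 19 genes listed for the EGF receptor family, 0 were at least 1.5-fold higher and 1 was lower (median -0.03), which was PHLDA1. The list mixes receptors and ligands with genes that respond to growth factor signals, and PHLDA1 is of the latter kind. Among the receptors, ERBB2 and ERBB3 differed by 0.53 and 0.54, just under 1.5-fold on this scale, and EGFR by -0.05. Of 15 keratins, 1 was at least 1.5-fold higher and 0 lower (median -0.06). That was KRT20, a gut keratin, at 1.53, 1.94 and 3.81 FPKM. Of 9 genes of squamous differentiation 1 was at least 1.5-fold higher and 1 lower (median 0.04). They were SPRR1A, a precursor of the cornified envelope, at 1.84, 2.57 and 3.56 FPKM, and SFN, the 14-3-3 sigma protein, at 91.3, 63.0 and 50.7. Of 5 genes on the list of mucins and related genes 1 was at least 1.5-fold higher and 0 lower (median 0.32), namely AGR2 at 88.1, 95.4 and 235 FPKM. The mucins among the 5, MUC1 and MUC13, differed by 0.19 and 0.02.

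**Figure D4:**
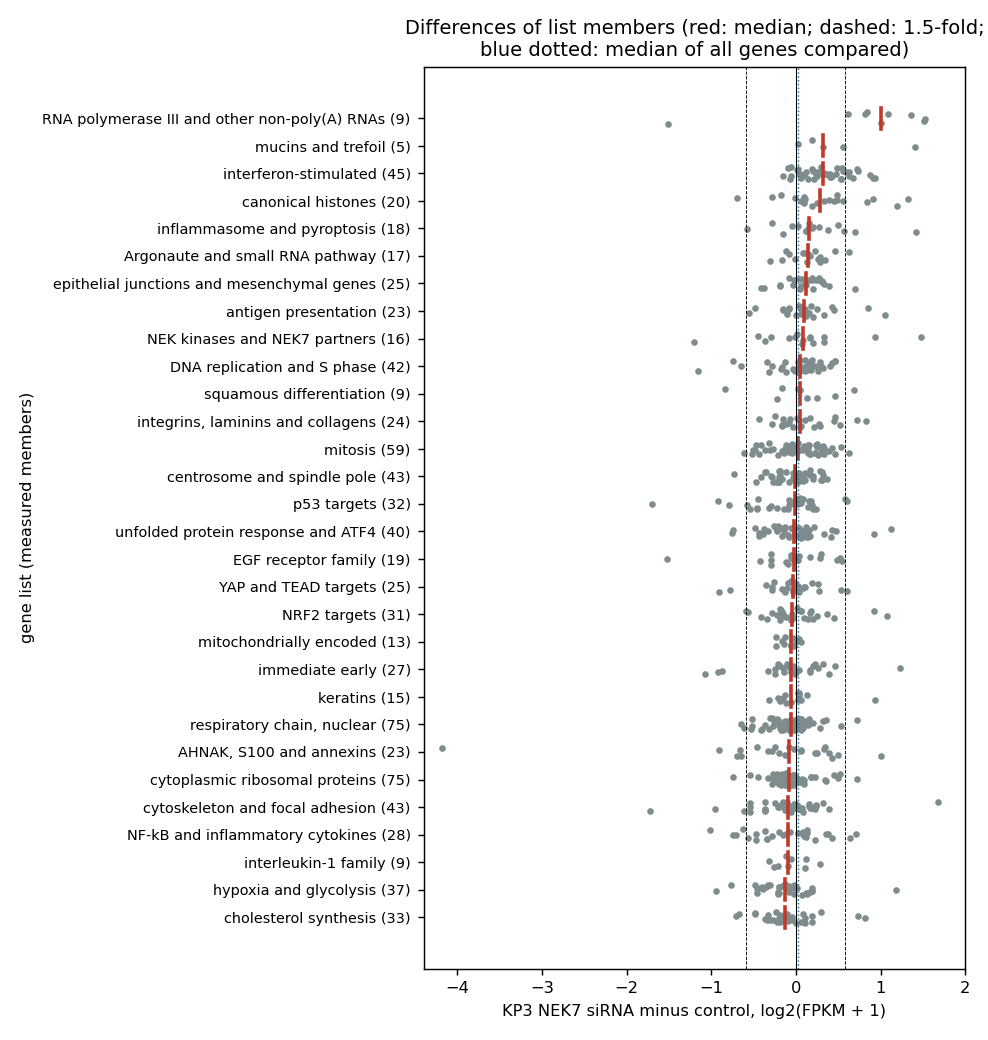
For each gene list the differences in log2(FPKM + 1) between the KP3 NEK7 siRNA and control libraries are plotted, 1 point a gene, with the median in red, the 1.5-fold limits dashed and the median of all genes compared as a blue dotted line. The list of RNAs without a poly(A) tail (median 1.01), the interferon-stimulated genes (0.31) and the histones (0.29) lie to the right. The 5 genes listed with the mucins (0.32) do so too, although the mucins MUC1 (0.19) and MUC13 (0.02) lie lower. The medians of the other lists lie between -0.13 and 0.16.

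CFPAC, given siRNAs labelled alike, was used to ask which differences were seen in KP3 alone. Of the 12372 genes, 10924 had an FPKM of at least 1 in the CFPAC control or NEK7 siRNA library, and of these 133 (1.22%) were at least 2-fold higher and 130 (1.19%) lower with NEK7 siRNA in CFPAC. Of the 188 genes higher in KP3, 136 were among them, and 14 of these (10.3%, or 10.5% of the 133) were at least 2-fold higher in CFPAC as well. A further 16 were at least 2-fold lower there and 80 were within 1.5-fold. Of the 195 lower genes, 137 were among them, 20 (14.6%, or 15.4% of the 130) were also at least 2-fold lower in CFPAC, 12 were at least 2-fold higher and 80 were within 1.5-fold. Most of the differences in KP3 thus had no counterpart of 2-fold in the other line, and 52 higher and 58 lower genes were below the FPKM limit there.

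The 20 shared lower genes included NEK7. STMN1, stathmin, which takes microtubules apart, had 14601, 14490 and 6797 counts in KP3 and 6297, 4449 and 2959 in CFPAC. TNFRSF12A, the receptor of the cytokine TWEAK, had 13352, 11134 and 5160 in KP3 and 11221, 9126 and 5875 in CFPAC. SCAMP1, GOLM2, FABP5 and GPD1L were likewise lowest with NEK7 siRNA in both lines, by -1.03 to -1.39. MDM4, described above, belongs here too. RRM2 and KCTD20 were low with either siRNA in both lines, with RRM2 at 10774, 3715 and 5160 counts in CFPAC.

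Many of the 14 shared higher genes were high with either siRNA. DLG3, a scaffold of cell junctions, had 1119, 2736 and 3709 counts in KP3 and 2120, 7069 and 8440 in CFPAC. HIPK1, a nuclear kinase, had 1364, 4501 and 4959 counts in KP3 and 1201, 3996 and 4323 in CFPAC. SDCBP, syntenin, which loads exosomes, had 5958, 14090 and 17627 in KP3 and 7982, 11315 and 24435 in CFPAC. HRH1, the histamine H1 receptor, had 21, 690 and 952 counts in KP3 and 25, 446 and 1734 in CFPAC. DCAF17, an adaptor of a ubiquitin ligase, was far higher with NEK7 siRNA in KP3, with 477, 670 and 2585 counts, while in CFPAC it had 216, 1088 and 1389.

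Whether the effect of NEK7 siRNA differed between the lines was tested with edgeR's quasi-likelihood test of the interaction of line and NEK7 siRNA, adjusted by Benjamini-Hochberg over the 14582 genes that reached an FPKM of 1 in any library. Its 1 residual degree of freedom is the part of the NEK6 siRNA effect that differs between the lines. It called 1 gene as more positive in KP3 (0.00686%) and 0 as more negative (0%), with 774 genes at an unadjusted p under 0.05. DESeq2 called 83 and 57, and limma on log2(FPKM + 1) called 0 and 0, with 767 genes at an unadjusted p under 0.05. The gene called was AC012321 (ENSG00000260772, chromosome 16, 69703065 to 69704652, plus strand), a noncoding record in the 3′ part of NFAT5. It had 1, 1 and 4361 counts in KP3 and 3748, 2793 and 1 in CFPAC, with an edgeR log2 fold change of 23.43 (SE 0.53, Benjamini-Hochberg adjusted p = 0.015). Since that value rests on libraries with 1 count it depends on the prior count and is no measure of size. The record overlaps NFAT5 on the same strand, so reads of both cannot be told apart with certainty. Summed with that overlap, the KP3 counts were 2905, 2971 and 11209 with control, NEK6 and NEK7 siRNA, so the NEK7 siRNA library stayed highest.

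Wide gaps between the lines in other genes did not pass this test. PRNP, the prion protein, had 18.9, 19.4 and 46.6 FPKM in KP3 and 73.7, 71.7 and 12.5 in CFPAC with control, NEK6 and NEK7 siRNA. Its NEK7 siRNA library was thus the highest in KP3 and the lowest in CFPAC, with a gap of 3.73 between the differences and an edgeR Benjamini-Hochberg adjusted p of 0.270. AHNAK had a gap of -4.32 and the same adjusted p of 0.270 by edgeR. For RAB5B the gap was -3.08 (edgeR adjusted p = 0.372) and for IGFBP3 it was 3.19 (edgeR adjusted p = 0.480). DESeq2 gave adjusted p-values of 9.49e-44 for PRNP, 6.79e-67 for AHNAK, 2.33e-23 for RAB5B and 3.82e-20 for IGFBP3. The call for these genes therefore depends on the tool.

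Other genes crossed over between the lines in a like manner. BCL2L2 differed by -1.96 in KP3 and 2.68 in CFPAC, where both siRNA libraries stood above control (1.10, 13 and 12.4 FPKM). TUBB2B, a beta-tubulin with a near-identical neighbour, had 257, 227 and 845 counts in KP3 and 510, 342 and 40 in CFPAC. FAM111A, a protease that restricts viral replication, had 1.40, 7.87 and 5.18 FPKM in KP3 and 9.48, 9.72 and 2.57 in CFPAC. SZRD1 differed by 1.54 in KP3 and by -1.19 in CFPAC. MYEOV, named for its high level in some myelomas, had 15.6, 6.23 and 4.16 FPKM in KP3 and 11.4, 10.1 and 31.7 in CFPAC. ADNP, a chromatin protein, had 7.18, 1.98 and 2.54 in KP3 and 5.44, 10.3 and 16.3 in CFPAC. For STX16 the KP3 libraries had 7.36, 28.8 and 35.0 FPKM and those of CFPAC 17.3, 6.13 and 8.40, so the siRNA libraries lay on opposite sides of control in the 2 lines.

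**Figure D5:**
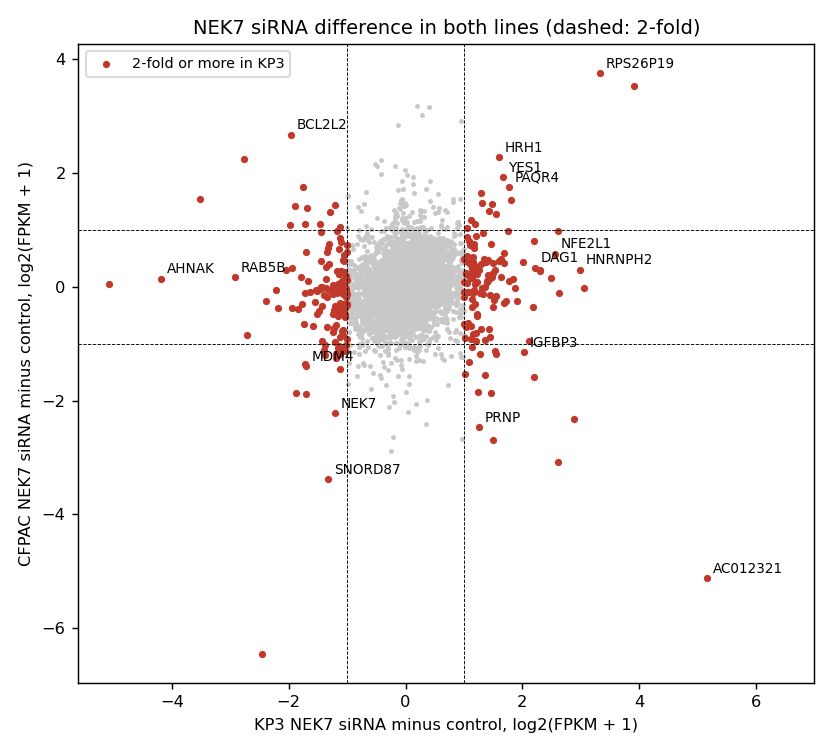
Each point is 1 gene, with the difference in log2(FPKM + 1) between NEK7 siRNA and control in KP3 on the x axis and in CFPAC on the y axis, with 2-fold dashed, genes past 2-fold in KP3 in red and some genes labelled. Genes far out on the x axis such as RAB5B (-2.92) lie near 0 in CFPAC (0.16), AC012321 lies far out in opposite directions, and few genes lie far out in the same direction.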

How the data were processed

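RNA of KP3 and CFPAC cells was sequenced from oligo(dT)-selected libraries made from 5 ug of total RNA, per the labels' protocols. The submitters' processing notes name cutadapt 1.9, HISAT2 2.0.4, StringTie 1.3.4d and edgeR, with no role or order. The authors deposited a whole-number count for each gene and library, without normalization. The authors also deposited an FPKM value per gene and library, which the file headers name and which corrects for the length of the transcript and the size of the library. Some records, such as AC012321, pair a count of 1 with an FPKM near 0. Strandedness of the counting and the genome build are not given in the sources used here, so antisense and overlapping genes are uncertain. Of 33097 gene ids, 32211 are in GENCODE 29 (GRCh38) and 32168 lie at the same place there. Positions are those of the file.

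The members, gene lists and tests were chosen with earlier results of these data known. Differences of log2(FPKM + 1) were taken between KP3 libraries, for genes whose FPKM reached 1 in either, with limits of 2-fold for genes and 1.5-fold for lists. Ratio intervals are 95% intervals of the log ratio of counts. The line difference was fitted on counts of all 6 libraries with edgeR 4.0.16 (R 4.3.3), TMM factors, Benjamini-Hochberg adjustment and a threshold of 0.05. The common dispersion was 0.0638 and the coefficient of variation 25.3%. A run on simulated counts used a smaller dispersion than this, so it does not show how the test performs on these data. DESeq2 1.42.0 and limma 3.58.1 were alternatives. Other alternatives were a pseudocount of 0.1, other FPKM limits, rescaling, TMM-scaled CPM, protein-coding genes only and other reference libraries. Limits on counts (100) and on overlapping records were added after seeing the data.

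Named genes were NEK7, NEK6, NEK9, PYCARD, CASP1, CASP4, NLRP3, GSDMD, GSDME, IL1B and IL18, the 12 most increased and 12 most decreased among genes 2-fold from both other KP3 libraries, 5 and 5 where the control stands apart, 6 and 6 by the gap between the lines, and up to 4 members of each list, with at least 100 counts and no clone name. Other genes named, such as those shared with CFPAC, single list members and AC012321, were chosen after their values were seen. Some genes that the rule takes are not reported here. Values were tabulated and drawn with Python 3.11.15, pandas 2.3.3, numpy 2.4.6, scipy 1.17.1 and matplotlib 3.10.9.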

Additional observations from a re-analysis of the deposited data

Results flagged for a closer look

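In 13 genes the difference with NEK7 siRNA was set apart between KP3 and CFPAC, by the test or, among genes with a gene symbol and at least 100 counts, by lying at least 2-fold from control in opposite directions. AC012321 passed the edgeR interaction test, with a log2 fold change of 23.43 that rests on libraries with 1 count. For the other 12, which lay on opposite sides, edgeR's adjusted p did not pass 0.05. The KP3 minus CFPAC gap in log2(FPKM + 1) was 3.73 for PRNP, 3.19 for IGFBP3, 3.09 for TUBB2B, 2.92 for FAM111A, 2.73 for SZRD1 and 2.21 for FGFBP1, which were higher in KP3. It was -4.63 for BCL2L2, -3.31 for PRRG1, -3.08 for MYEOV, -2.64 for ADNP, -2.61 for CLDN12 and -2.56 for SPC24, which were lower in KP3. FGFBP1, a carrier of fibroblast growth factors, had 7962, 8366 and 18132 counts in KP3 with control, NEK6 and NEK7 siRNA and 1515, 1551 and 730 in CFPAC. CLDN12, a claudin, had 5836, 4207 and 2139 counts in KP3 and 3354, 8413 and 9792 in CFPAC. No condition had a replicate library.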

How the results depend on the processing

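The counts of genes past the fold depended on the scale. Higher, lower, higher than both and lower than both other KP3 libraries were 188, 195, 73 and 62. They were 450, 432, 178 and 211 with a pseudocount of 0.1, and 468, 478, 177 and 233 on TMM-scaled CPM. With a mean FPKM of at least 5 they were 87, 63, 30 and 24, for protein-coding genes only 112, 102, 45 and 37, and without overlapping records (chosen after seeing the data) 110, 91, 41 and 32. At 1.5-fold they were 675, 674, 281 and 293. With the mean of control and NEK6 siRNA as reference, lower genes were 122. They were 144, 148, 50 and 55 with a mean FPKM of at least 1, and 146, 134, 56 and 50 with at least 100 counts (chosen after seeing the data). NEK7 left was 46.8% against the NEK6 siRNA library. The line difference had 83 genes more positive and 57 more negative in KP3 by DESeq2, and 0 more positive by limma. Against the NEK6 siRNA library, differences turned to -0.99 for MALAT1, 0.10 for PRRG1, -0.52 for FAM111A and 0.25 for ADNP, genes for which that library lies beyond the NEK7 siRNA library. The medians of the RNAs without a poly(A) tail (-1.95), cholesterol synthesis (0.29) and junction and mesenchymal genes (-0.05) also changed sign there. The cause of the other changes was not tested. No paired analysis was possible because each line and siRNA has 1 library with no replicate number. A replicate could not be left out for the same reason.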

Other observations

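Genes of the KP3 comparison not described above moved unequally with both siRNAs, and all values here are FPKM in the control, NEK6 siRNA and NEK7 siRNA libraries of KP3. CX3CL1, a membrane-bound chemokine, had 4.33, 24.1 and 17.7, and SLC39A14, a carrier of zinc and iron, had 4.42, 10.9 and 16.5, so both were low in the control library alone. UCA1, a long noncoding RNA of epithelial tumours, had 19.3, 11.48 and 6.65, and STK4, a kinase of the Hippo pathway, had 6.17, 4.46 and 2.26, with the NEK6 siRNA library in between in each. BIRC2, a ubiquitin ligase that holds back cell death, had 25.1, 45.3 and 52.9, and BIK, a BH3-only protein that promotes it, had 11, 12.2 and 24.3.

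Other genes stood apart with NEK7 siRNA alone. VPS26A, a retromer subunit, had 6.41, 7.45 and 19.9, and M6PR, the cation-dependent mannose 6-phosphate receptor, had 25.4, 22.9 and 59.9. KLF5 had 4.58, 4.46 and 14 and the ubiquitin ligase CBL had 0.894, 0.563 and 3.18, each highest with NEK7 siRNA, whereas VDR had 4.90, 6.48 and 1.51. These genes were chosen after their values were seen, and none has a replicate check.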
